A study of Mus musculus with 2 samples.

Results

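Keratins are the intermediate filament proteins of epithelial cells, and 8 keratin genes of the mouse lacrimal gland are described here by transcript counts in single cells. They were taken by symbol: the basal keratins Krt5, Krt14, Krt15 and Krt17, and the simple keratins Krt7, Krt8, Krt18 and Krt19. They are 8 of the 27775 features listed in the files, which also hold 43 other keratin symbols. A keratin filament is built from pairs of a type I and a type II protein, so a cell needs genes of both types. Krt5, Krt7 and Krt8 are type II, and Krt14, Krt15, Krt17, Krt18 and Krt19 are type I. In glands, Krt5 with Krt14 is the classical pair of basal and myoepithelial cells, and Krt8 with Krt18 is the pair of simple epithelium such as acini and ducts, with Krt7 and Krt19 known as duct keratins.

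The lacrimal gland makes the watery part of tears, and the mouse gland branches before birth and takes up secretion after it. The series compared wild-type glands from 2 ages of the outbred CD1 strain, embryonic day 16 (called E16) and day 4 after birth (P4), and the labels name no treatment or engineered allele for either. Glands were pooled, digested with Liberase and DNase and passed through a strainer, and each stage was 1 library, so the stages had no replicate check and no test across samples was made. Every interval is a 95% interval and covers counting error only. Stage, library, pool and digestion cannot be told apart.

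The E16 library held 437 barcodes and the P4 library 687, and the 259 and 406 barcodes with at least 200 detected genes were kept, with medians of 5802 and 3767 UMIs (unique molecular identifiers, each standing for a captured transcript). No barcode sequence was shared between the libraries. Cells were clustered without any keratin gene, and clusters were named from marker lists that hold no keratin. Epithelial-like cells numbered 89 in E16 and 98 in P4, with 628734 and 736613 UMIs and medians of 4856 and 3371 per cell. Of 24 epithelial markers, such as the adhesion genes Epcam and Cdh1, 23 had UMIs in the E16 cells and 24 in the P4 cells. The mesenchyme markers summed to 350 counts per 1000000 UMIs of the class (CPM) in the E16 epithelial-like cells and 1193 CPM in the P4 ones, against 18976 and 47477 CPM in mesenchyme-like cells, and Twist1 and Twist2 were at 0 in the epithelial-like cells. The share of these UMIs in the keratin differences was not tested.

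The 8 genes lie in the 2 keratin gene clusters of the mouse genome, one for each type, with Krt18 as the known exception that sits beside the type II genes (GENCODE M21 annotation, GRCm38 build, all 8 protein-coding and matched by identifier). On the minus strand of chromosome 11 are Krt15 (ENSMUSG00000054146, chr11:100131758-100135928), Krt19 (ENSMUSG00000020911, chr11:100140810-100148665), Krt14 (ENSMUSG00000045545, chr11:100203162-100207548) and Krt17 (ENSMUSG00000035557, chr11:100256217-100261029). On chromosome 15 are Krt7 (ENSMUSG00000023039, chr15:101411043-101430313, plus strand), Krt5 (ENSMUSG00000061527, chr15:101707070-101712898, minus strand), Krt8 (ENSMUSG00000049382, chr15:101996698-102004482, minus strand) and Krt18 (ENSMUSG00000023043, chr15:102028180-102032027, plus strand). Krt8 and Krt18 are neighbours that point away from each other, with 23697 bases between their start sites. The annotation places Gm671, Gm44323 and Gm36026 over Krt7, Krt5 and Krt8, and none of these is listed in the files.

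Summed over all epithelial-like cells, the simple keratins were higher in the P4 library and the basal keratins were lower. The simple keratins had 853 UMIs in E16 and 3461 in P4, or 1357 and 4699 CPM, a P4 level 3.46-fold higher (interval 3.21 to 3.74). The basal keratins had 531 UMIs in E16 and 255 in P4, or 845 and 346 CPM, an E16 level 2.44-fold higher (interval 2.10 to 2.84). Basal keratins therefore made up 38.4% of the UMIs of the 8 genes in E16 and 6.86% in P4. Summed over the 8 genes, there were 2.95 type I UMIs per type II UMI in E16 and 2.81 in P4.

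These class sums mix clusters that the 2 libraries filled differently. Of the epithelial-like clusters, cluster 0 held 46 E16 and 10 P4 cells, cluster 2 held 32 and 24, cluster 6 held 11 and 36, and cluster 16, led by Dcpp genes, held 28 P4 cells and no E16 cell. Within cluster 6 the simple keratins had 503 E16 and 2896 P4 UMIs, or 7608 and 7880.1 CPM, and the P4 level was 1.04 times the E16 level (interval 0.942 to 1.14), so the class difference was nearly absent there. Within cluster 2 they were 1.76-fold higher in P4 (interval 1.20 to 2.58) and within cluster 0 they were 5.53-fold higher (interval 4.52 to 6.74), from 580.3 to 3207 CPM. The basal keratins were higher in E16 by 1.92-fold within cluster 6 (interval 1.43 to 2.55), by 1.62-fold within cluster 2 (interval 1.07 to 2.501) and by 1.25-fold within cluster 0, where the interval of 0.854 to 1.89 spans 1. The cluster 0 values lean on single cells among its 10 P4 cells. A single cell held 23 of the 29 P4 basal UMIs, and a single cell held 62 of the 156 P4 simple UMIs. The size of the simple keratin difference thus depended on the cluster, and the class value moves with the mix of clusters.

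Single genes differed within cluster 6, the cluster with the most keratin. Krt15 had 18 UMIs in E16 and 3 in P4 there, 33.3-fold higher in E16 (interval 9.74 to 177), and Krt5 had 10 and 13 UMIs, 4.28-fold higher in E16 (interval 1.68 to 10.6). Krt14 had 15 and 122 UMIs there, a P4 level 1.46 times that of E16 with an interval of 0.853 to 2.69 that spans 1. Krt19 had 56 and 87 UMIs, 3.58-fold higher in E16 (interval 2.51 to 5.06), which the class sum did not show. Krt8 stood at a ratio of 0.929 (interval 0.763 to 1.14), Krt18 at 1.17 (interval 1.04 to 1.32) and Krt7 at 1.79 (interval 1.10 to 3.09). Outside cluster 6 the Krt5 difference did not recur. Its ratio of P4 to E16 was 2.43 in cluster 0 and 1.76 in cluster 2, on 4 P4 UMIs each, with intervals that span 1.

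**Figure D1:**
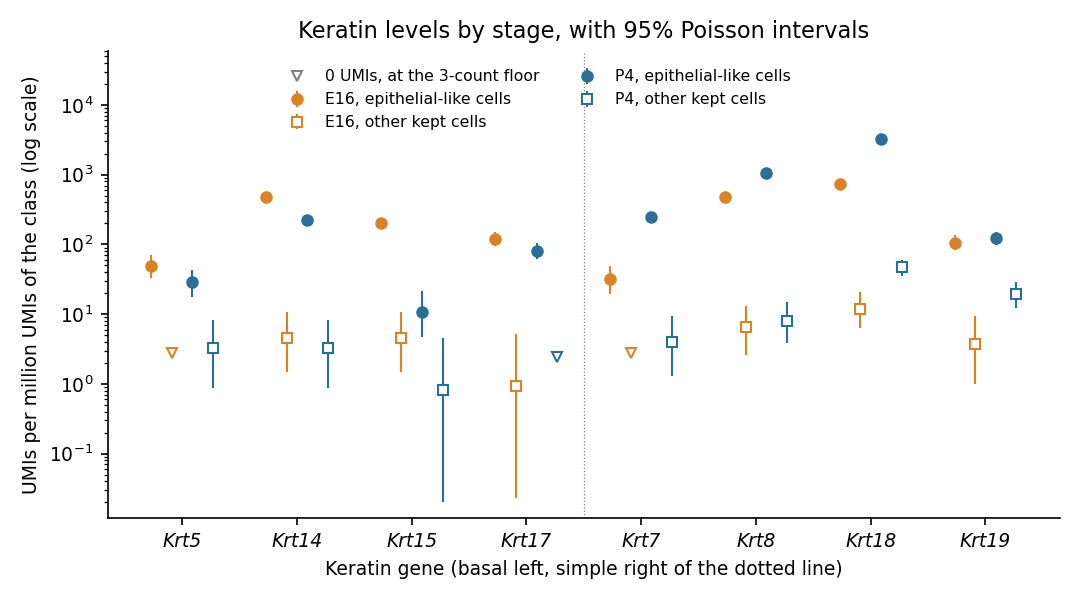
Level of each keratin gene in CPM of the cell class on a log axis, for epithelial-like cells (filled circles) and all other kept cells (open squares) of the E16 and P4 libraries, with exact Poisson 95% intervals of the UMI count and open triangles for genes at 0 UMIs, drawn at the floor of 3 counts. The 4 basal keratins are lower in P4 than in E16, Krt7, Krt8 and Krt18 are higher, and Krt19 is at 107 and 122 CPM.

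The most abundant of the simple keratins was Krt18, the type I partner of Krt8. Krt18 had 467 UMIs in E16 and 2416 in P4, or 743 and 3279.9 CPM, 4.42-fold higher in P4 (interval 3.998 to 4.89). Krt8, the type II partner, had 299 and 773 UMIs, or 476 and 1049 CPM, 2.21-fold higher in P4 (interval 1.93 to 2.53). Both genes had UMIs in most P4 cells: Krt18 in 85 of 98 and Krt8 in 74, against 49 and 64 of 89 in E16. The balance of the pair differed between the libraries: there were 1.56 Krt18 UMIs per Krt8 UMI in E16 (interval 1.35 to 1.81) and 3.13 in P4 (interval 2.88 to 3.39). These are UMIs and were not divided by transcript length. In E16, 30 cells had more Krt18 than Krt8 UMIs and 33 had fewer, and in P4 the numbers were 73 and 10. The class balance mixes clusters as well. Within cluster 6 Krt18 and Krt8 had 309 and 120 UMIs in E16, and 2010 and 620 in P4. Within cluster 0 they had 127 and 155 in E16, and 117 and 38 in P4. Within cluster 2 they had 31 and 24 in E16, and 38 and 20 in P4.

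The duct keratins differed from each other. Krt7 had 20 UMIs in 8 cells of E16 and 182 UMIs in 28 cells of P4, or 31.8 and 247 CPM, 7.77-fold higher in P4 (interval 4.88 to 13.0). Krt19 had 67 UMIs in 11 cells of E16 and 90 UMIs in 20 cells of P4, or 107 and 122 CPM, a ratio of 1.15 whose interval of 0.826 to 1.60 spans 1. A single P4 cell held 41 of the 90 Krt19 UMIs, and without the top cell of each library Krt19 was lower in P4 by a log2 difference of -0.21.

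Among the basal keratins, Krt15, a keratin of basal progenitor layers in skin and other stratified epithelia, differed most between the libraries. Krt15 had 127 UMIs in 41 E16 cells and 8 UMIs in 3 P4 cells, or 202 and 10.9 CPM, 18.6-fold higher in E16 (interval 9.16 to 44.0). Krt14, the type I partner of Krt5, had 298 UMIs in 54 E16 cells and 166 in 31 P4 cells, or 474 and 225 CPM, 2.10-fold higher in E16 (interval 1.73 to 2.56). Krt14 was the most abundant basal keratin in UMIs at both stages, and 35 of its 166 P4 UMIs came from a single cell.

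Krt5 and Krt17 were sparser. Krt5 had 31 UMIs in 21 E16 cells and 21 UMIs in 13 P4 cells, or 49.3 and 28.5 CPM, 1.73-fold higher in E16 with an interval of 0.963 to 3.17 that spans 1. Krt17, a keratin known from hair follicles, wounds and basal or myoepithelial cells, had 75 UMIs in 12 E16 cells and 60 in 18 P4 cells, or 119 and 81.5 CPM, 1.46-fold higher in E16 (interval 1.03 to 2.09). A single cell held 33 of the 75 Krt17 UMIs in E16, and a single cell held 25 of the 60 in P4. The Krt17 values thus describe few cells in either library. Its log2 ratio of P4 to E16, -0.55, became -0.07 without cells above 10% Dcpp and Smgc UMIs, -0.16 with those genes out of the totals and -1.02 with equal weight for each cell.

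Read against all genes, 3 of the 4 simple keratins stood on the less common side, and Krt19 on neither. Of 5014 genes with at least 30 UMIs over the epithelial-like cells of both libraries, 7.00% reached a P4 level 2 or more times that of E16, and 27.5% reached the reverse. Of the 8 keratins, 3 did so upwards (Krt7, Krt8 and Krt18) and 2 downwards (Krt14 and Krt15). As log2 ratios of P4 to E16, the median of the 8 keratins was -0.18 and that of all 5014 genes was -0.53. The secretory genes Dcpp1, Dcpp2, Dcpp3 and Smgc, which encode abundant salivary and lacrimal products, took 23.7% of the UMIs of the P4 epithelial-like cells and 0.00318% in E16, and this lowers the CPM of every other gene in P4. With these genes left out of the totals the median of all genes was -0.14, the shares past 2-fold became 11.4% upwards and 14.7% downwards, and Krt14 no longer reached a 2-fold difference (log2 ratio -0.68), while Krt7, Krt8, Krt18 and Krt15 did.

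The stretch around the annotated start is shown for the simple keratins that were higher together in P4, from 80 bases before to 20 bases after the RefSeq start (GRCm38.p6), 5′ to 3′ on each gene's strand. Capitals mark the TATA-box letters TATAAA in Krt8, where the matches on the 2 strands overlap, and the GC-box letters GGGCGG in Krt7, here on the opposite strand as CCGCCC. The Krt8 matches begin 3 bases and 1 base before the RefSeq start and run across it. Only exact letters were searched.
Krt7: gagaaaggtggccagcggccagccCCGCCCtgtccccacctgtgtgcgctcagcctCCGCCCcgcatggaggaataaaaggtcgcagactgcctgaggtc
Krt8: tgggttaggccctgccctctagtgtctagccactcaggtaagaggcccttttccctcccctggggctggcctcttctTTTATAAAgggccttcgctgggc
Krt18: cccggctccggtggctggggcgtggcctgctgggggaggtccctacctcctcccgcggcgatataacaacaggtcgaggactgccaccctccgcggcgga
They lie at chr15:101412323-101412422 on the plus strand, chr15:102004323-102004422 on the minus strand and chr15:102028136-102028235 on the plus strand. Of the 8 genes, 5 had an entry in the RefSeq promoter table used: these 3, Krt5 and Krt14. In the window from 250 bases before to 50 after the start, searched on both strands, TATAAA was found in Krt8 alone of the 5 and in 14.2% of all 27025 promoters. GGGCGG was found in Krt7 alone, with 4 matches, and in 35.9% of all promoters. The letters TGANTCA, the AP-1 motif, were found in none of the 5 and in 7.93% of all promoters. Krt7, Krt8 and Krt18 thus shared none of these letter strings in this window. The RefSeq starts used differ from the GENCODE ones. The Krt7 stretch lies inside the GENCODE span of its gene, which begins at 101411043. The Krt8 stretch also lies inside its gene's span, which begins at 102004482 on the minus strand. The same stretch of Krt14, chr11:100206011-100206110, lies inside a span that begins at 100207548 on the minus strand. Windows at the GENCODE starts were not searched, so these matches hold for the RefSeq starts alone.

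Within single cells, basal and simple keratins were often found together in E16 and less often in P4. Of the 89 E16 epithelial-like cells, 52 had a UMI of at least 1 basal and at least 1 simple keratin (58.4%, interval 47.5 to 68.8), 14 had basal keratins alone, 19 simple keratins alone and 4 neither. Of the 98 P4 cells, 30 had both (30.6%, interval 21.7 to 40.7), 5 had basal keratins alone, 59 simple keratins alone and 4 neither. These shares too mix the clusters. Both sets were found in 31 of 46 E16 and 3 of 10 P4 cells of cluster 0, and in 14 of 32 and 8 of 24 of cluster 2. In cluster 6 they were found in 7 of 11 and 18 of 36 cells, and in cluster 16, without E16 cells, in 1 of 28. Cells with both were deeply captured, with a median of 6856 UMIs in E16. After thinning each cell to 979 UMIs, the expected share with both was 22.0% in E16 (86 cells, 3 shallower ones left out) and 14.02% in P4 (88 cells). Among all other kept cells, which should lack keratins, 3 of 170 in E16 and 2 of 308 in P4 had both, with medians of 5858 and 3822 UMIs per cell over all of these other cells. With at least 2 UMIs of each set required, 39 epithelial-like cells of E16 (43.8%) and 20 of P4 (20.4%) had both, and none of the other cells did.

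Over all epithelial-like cells, the difference lay in how many cells had a basal keratin. A basal keratin UMI was found in 66 of 89 E16 cells (74.2%) and 35 of 98 P4 cells (35.7%), and after thinning in 49.7% and 21.5%. By cluster, the E16 and P4 numbers were 36 of 46 and 3 of 10 in cluster 0, and 23 of 32 and 13 of 24 in cluster 2. They were 7 of 11 and 18 of 36 in cluster 6, and 1 of 28 P4 cells in cluster 16. A simple keratin UMI was found in 71 E16 cells (79.8%) and 89 P4 cells (90.8%), and after thinning in 47.9% and 82.5%. A typical E16 cell showed UMIs of a median of 3 of the 8 genes and a typical P4 cell of 2, and 16 cells in each library showed 5 or more. In cells with at least 5 keratin UMIs, basal keratins made up a median of 57.3% of a cell's keratin UMIs in the 54 E16 cells (lowest 0, highest 96.3%) and a median of 0 in the 72 P4 cells (lowest 0, highest 80%). Basal keratins were in the majority in 30 of these E16 cells and 3 of these P4 cells, and absent from 8 and 48.

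**Figure D2:**
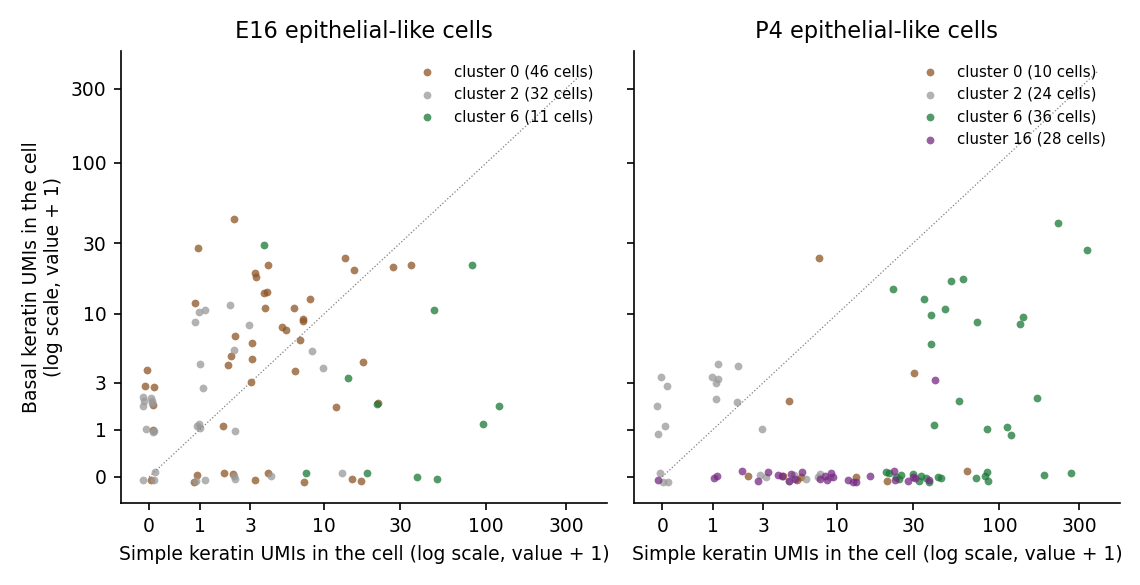
Basal keratin UMIs (vertical) against simple keratin UMIs (horizontal) of each epithelial-like cell, both as value + 1 on log axes with a small random offset, in the E16 library (left) and the P4 library (right), coloured by cluster, with a dotted line at equal counts. Many E16 cells lie above the line, and most P4 cells lie along the lower edge with 0 basal keratin UMIs.

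Partner genes were found in the same cells to different degrees. Krt8 and Krt18 were found together in 44 E16 cells, 68.8% of the cells with Krt8 and 89.8% of those with Krt18. They were found together in 70 P4 cells, 94.6% of the cells with Krt8 and 82.4% of those with Krt18. Krt5 and Krt14 were found together in 16 of the 21 E16 cells with Krt5, and in 12 of the 13 P4 cells with Krt5. Krt14, whose UMIs were many, was found without Krt5 in most of its cells at both stages.

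Pairs across the sets were common too. Krt14 and Krt8 were found together in 40 of the 54 E16 cells with Krt14 (74.1%) and in 23 of the 31 P4 cells with Krt14 (74.2%). These shares are near those of Krt8 over all epithelial-like cells, 71.9% in E16 and 75.5% in P4. All 12 E16 cells with Krt17 also had Krt8. Krt7 and Krt19 were found together in 6 of the 8 E16 cells with Krt7 and in 16 of the 28 P4 cells with Krt7. All 20 P4 cells with Krt19 also had Krt18, which had a UMI in 86.7% of all P4 epithelial-like cells. These shares rest on detection, so a gene with few UMIs is missed in cells that hold it.

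Sub-clusters of the epithelial-like cells, again made without keratins and within each library, held the 2 sets unevenly. In E16 the simple keratins were concentrated in a duct-like sub-cluster of 14 cells led by Wfdc18, Adh7, the claudin Cldn4, Krt19 and Nupr1. There they reached 6231 CPM (interval 5718 to 6778), against 572 CPM (interval 510.4 to 639.8) in the other 75 cells, and 63.7% of all E16 simple keratin UMIs lay in it. It held 18 of the 20 Krt7 UMIs and 56 of the 67 Krt19 UMIs of the E16 epithelium, and it had 2.47 Krt18 UMIs per Krt8 UMI. Basal keratins were 10.8% of its keratin UMIs. Its duct name rests on Wfdc2, Elf5, Ehf and Cldn4, which are also on the list of general epithelial markers. The duct markers Sftpd, Ltf, Muc1 and Slc34a2 were at 0 in all E16 epithelial-like cells.

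The other 3 E16 sub-clusters could not be named from the lists, and basal keratins outnumbered simple ones in each. They were 59.7% of keratin UMIs in a sub-cluster of 23 cells led by Ndufc1, Nsfl1c, Sri, Ebpl and Pafah1b3. They were 76.8% in 20 cells led by Med31, Gemin2, Eps8, Asah1 and Mrpl16, and 56.6% in 32 cells led by Tigd2, Epha2, Tnrc6c and Mapk14 among others. In order of the basal keratin level, these sub-clusters stood at 1226, 1144 and 754 CPM, the duct-like cells stood at 757 CPM, and the intervals of neighbours in this order overlapped throughout. The basal sum thus stayed within a 2-fold range over the E16 sub-clusters, while simple keratins ranged from 346 to 6231 CPM. By CPM alone, the single basal genes varied more than their sum. Krt14 ran from 138 CPM in the duct-like cells (12 UMIs) to 798 CPM in the 20 cells (60 UMIs). Krt17 ran from 26.6 CPM in those 20 cells (2 UMIs in 1 cell) to 207 CPM in the duct-like cells (18 UMIs in 3 cells, 11 of them in 1 cell). Krt5 ran from 36.7 CPM in the 32 cells (15 UMIs) to 103 CPM in the duct-like cells (9 UMIs). No intervals are given for these genes, and the Krt17 and Krt5 values rest on few UMIs.

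In P4 the simple keratins outnumbered the basal ones in every sub-cluster, and the simple level again peaked in duct-like cells. Basal UMIs were found in 5 of the 6 P4 sub-clusters, at levels that differed more than in E16. The highest basal level was in a contractile sub-cluster of 16 cells led by Lamb1, Acta2, Ccdc23, Fbln2 and Actg2, of which Acta2 and Actg2 are smooth muscle actins that myoepithelial and mural cells share. It had 1757 CPM of basal keratins (interval 1436 to 2129), against 223 CPM (interval 189 to 261) in the other 82 P4 cells. Of the P4 epithelial UMIs it held 13 of 21 for Krt5, 71 of 166 for Krt14, all 8 for Krt15 and 12 of 60 for Krt17. Most Krt17 UMIs, 35 of 60, were instead in an unnamed sub-cluster of 18 cells led by Sftpc, but a single cell held 25 of the 35. Krt17 had UMIs in 6 of these 18 cells, at 134 CPM, and in 8 of the 16 contractile cells, at 203 CPM. Mural cells were a separate cluster of 16 cells in E16 and 9 in P4, with 2 and 0 basal keratin UMIs. Of the 12 mural markers, 7 had UMIs in the 98 P4 epithelial-like cells, at 229 CPM in sum against 4950.5 CPM in the mural cells, and 126 of these 169 UMIs were of Tagln, which is also on the contractile list. Pdgfrb, Cspg4, Higd1b, Ndufa4l2 and Des were at 0. The part of mural RNA in the contractile cells was not tested.

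These contractile cells were not free of simple keratins. Of the 16, 12 had UMIs of both sets, 3 had basal keratins alone, 1 had neither, and basal keratins made up 37.5% of their keratin UMIs. Their simple keratin level of 2923 CPM (interval 2503 to 3392) was the second lowest of the P4 sub-clusters. Their median of 1794 UMIs per cell was the lowest of the P4 sub-clusters, and its part in these values was not tested.

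The highest simple keratin level in P4 was in a duct-like sub-cluster of 15 cells led by the surfactant protein gene Sftpd, Nupr1, Cyp2f2, Krt19 and Esp18. It had 15862 CPM of simple keratins, against 3592 CPM (interval 3449.6 to 3738) in the other 83 cells. It held 92 of the 182 Krt7 UMIs and 70 of the 90 Krt19 UMIs of the P4 epithelium. Its basal level of 813 CPM was the second highest, but 35 of its 43 Krt14 UMIs were in a single cell and 4 of its 15 cells had any basal UMI.

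The other 4 P4 sub-clusters followed in simple keratin level, with the contractile cells between the lowest pair. An unnamed sub-cluster of 18 cells led by Sftpc, Zranb1, Il17re, Mycbp2 and Mtif2 had 5591 CPM of simple and 334 CPM of basal keratins, and held 34.1% of the basal UMIs. An unnamed sub-cluster of 24 cells led by Supt16, Caml, Nup85 and the mitotic genes Ccnb1 and Pttg1 had 4672 CPM of simple and 45.7 CPM of basal keratins. Acinar secretory-like cells, which make the secreted protein of the gland, fell in 2 sub-clusters with almost no basal keratin. The 7 cells led by Scgb2a2, Fgg, Scgb2b7, Scgb1b7 and Scgb1b20 had 3909.9 CPM of simple keratins and 0 basal UMIs, and the 18 cells led by Dcpp3, Dcpp2, Prol1, Dcpp1 and Smgc had 1462 CPM and 7 basal UMIs. The intervals of neighbours in this order overlapped for the 24 mitotic-gene-led and the 7 Scgb-led cells, and for the Scgb-led and the contractile cells, and for no other neighbours.

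**Figure D3:**
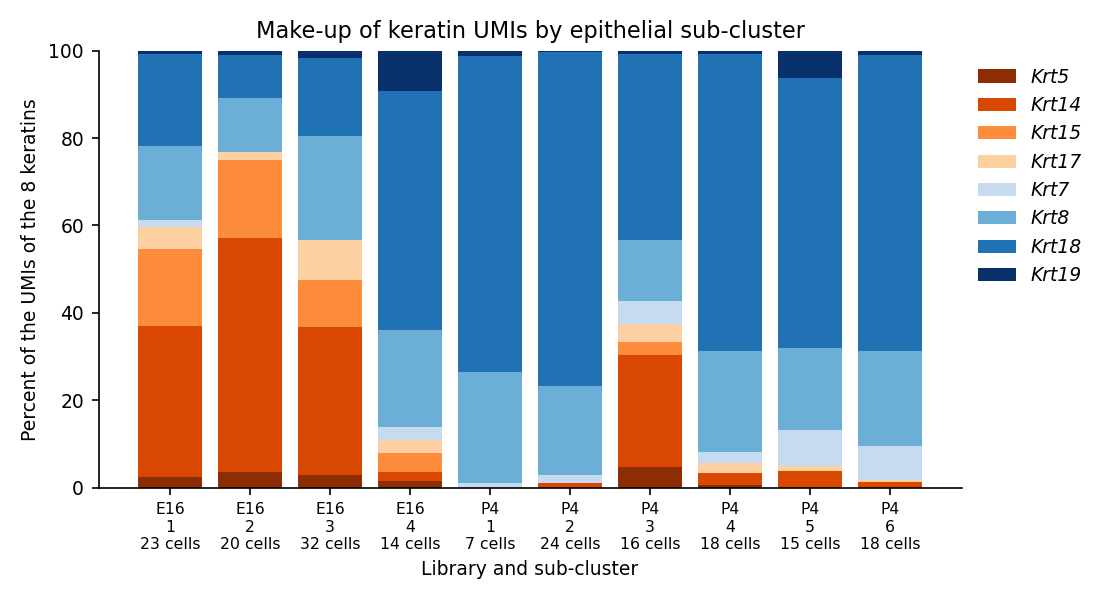
Make-up of the keratin UMIs in each epithelial sub-cluster, as the percent of the UMIs of the 8 genes (stacked bars, basal keratins in brown and orange, simple keratins in blue), with library, sub-cluster number and number of cells under each bar. Basal keratins make up 56.6% to 76.8% in E16 sub-clusters 1 to 3, 10.8% in the duct-like E16 sub-cluster 4, 37.5% in the contractile P4 sub-cluster 3 and at most 5.64% in the other P4 sub-clusters.

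Genes of the structures that hold keratin filaments were compared in the same way. Of 4 measured genes of hemidesmosomes and their matrix, which anchor basal keratins to the basement membrane, 2 were at least 2-fold lower and none higher, with a median log2 ratio of -1.01, beside the 27.5% of all genes that were lower by that much. The integrin Itga6 had 40 and 22 UMIs (log2 ratio -1.09) and the tetraspanin Cd151 had 80 and 49 (-0.94). With the Dcpp and Smgc genes out of the totals, Itga6 stood at -0.70 and 1 of the 4 genes was 2-fold lower, beside 14.7% of all genes. Of 5 measured desmosome and plakin genes, 2 were at least 2-fold lower and none higher, beside the same 27.5% of all genes, with a median of -0.70. Dsp, the plakin that links keratins to desmosomes, had 56 and 16 UMIs (-2.04), the plakophilin Pkp3 had 33 and 15 (-1.37) and the desmosomal protein gene Perp had 365 and 264 (-0.70), while Jup (plakoglobin) and the desmocollin Dsc2 stood at 0.27 and 0.17. With the Dcpp and Smgc genes out of the totals, 1 of the 5, Dsp, was 2-fold lower, beside 14.7% of all genes.

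Of 9 measured regulators of keratin genes, 2 were at least 2-fold lower and none higher, with a median of -0.23. Over all genes, 27.5% were lower and 7.00% higher by that much. With the Dcpp and Smgc genes out of the totals, 2 of the 9 were lower and 1, Ehf, was higher, with a median of 0.16. The shares of all genes were then 14.7% and 11.4%, so how the list compares with all genes depended on the scaling. Trp63, the p63 factor of basal cells, had 27 and 8 UMIs (-1.98), the AP-2 gene Tfap2c had 104 and 28 (-2.12), and the ETS gene Ehf had 83 and 161 (0.73). Of 4 measured other intermediate filament and lamin genes, 2 were at least 2-fold lower, beside 27.5% of all genes, with a median of -1.07. With the Dcpp and Smgc genes out of the totals it was again 2 of 4, beside 14.7% of all genes. Lmnb1 had 117 and 45 UMIs (-1.61) and vimentin (Vim) had 136 and 59 (-1.43), while Lmna had 86 and 65 (-0.63). Vim is also a mesenchyme gene, and the part of other cells' RNA in its value was not tested.

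Genes of stratified surface epithelium went both ways. Of 10 such genes 5 were measured, 3 of them at least 2-fold higher at P4 and none 2-fold lower, with a median of 1.23. Beside this list and the next ones, 7.00% of all 5014 genes were at least 2-fold higher and 27.5% at least 2-fold lower. With the Dcpp and Smgc genes out of the totals, these shares of all genes were 11.4% and 14.7%. Fgfbp1, which binds fibroblast growth factors, had 19 and 160 UMIs (2.85), Sbsn had 8 and 29 (1.63) and Calml3 had 12 and 33 (1.23), while the other measured members, Sfn and Lgals7, stood at -0.86 and -0.93. Of 6 measured contractile genes 2 were at least 2-fold higher in P4, with a median of 0.39: Cnn1 (calponin) had 2 and 65 UMIs (4.79) and Mylk (myosin light chain kinase) had 9 and 44 (2.06), while Acta2 had 629 and 718 (-0.04). Of 7 measured duct genes 3 were at least 2-fold higher and none lower, with a median of 0.77 (6 of 7 with the Dcpp and Smgc genes out of the totals), and the duct gene Sftpd had 0 UMIs in E16 and 144 in P4. Of 8 measured bud progenitor genes 4 were at least 2-fold lower and 1 higher, with a median of -0.84 (2 lower under that scaling), and the FGF-responsive factors Etv5 and Etv4 had 134 and 11, and 58 and 6 UMIs.

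Other keratins were few. Of the 43, 29 had no UMI in any kept cell, and all of them together had 119 UMIs in the E16 epithelial-like cells and 148 in the P4 ones. Only Krt23 and Krt10 reached 30 UMIs over both libraries. Krt23, a type I keratin, had 91 and 119 UMIs (log2 ratio 0.16), and Krt10, the suprabasal keratin of skin, had 23 and 17 (-0.66). Neither differed by 2-fold, and their median of -0.25 became 0.14 with the Dcpp and Smgc genes out of the totals.

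Some genes outside the keratins had a profile close to that of each set across all cells. The measure was the Pearson correlation of log2(CPM + 20) over 21 groups of at least 10 cells (clusters split by library, all from the 2 libraries), among 4713 genes that are not keratins. For the summed simple keratins these were Gm16136 and the tight junction gene Cldn3 (0.95 each), Epcam (0.94), the vesicle transport gene Rab25 and Ppap2c (0.93 each). For the summed basal keratins they were Sfn, which encodes 14-3-3 sigma, the glycolytic aldolase gene Aldoc and Mia (0.97 each), and the homeobox gene Meis2 and Perp (0.96 each). Of the 21 groups, 14 held no epithelial-like cells, so the values mainly set 7 epithelial groups apart from the rest.

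Outside the epithelium keratin UMIs were sparse, and the epithelial-like cells held 97.5% of the UMIs of the 8 genes among kept cells in E16 and 97.2% in P4. Krt18 had UMIs in 12 of 170 other E16 cells (7.06%) and 49 of 308 other P4 cells (15.9%), at 12.01 and 46.8 CPM. In P4 it was found in 29 of 177 mesenchyme-like cells (16.4%) and in 9 of 47 macrophage-like cells (19.1%). Over the other P4 classes its share ran from 5.56% of 18 T or innate lymphoid-like cells to 50% of 4 glial-like cells. The part of free RNA in these counts was not tested, and no expression is read from them.

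Krt19 did not follow Krt18 there. All 24 Krt19 UMIs found in P4 outside the epithelium were in mesenchyme-like cells, in 17 of 177 (9.60%, interval 5.70 to 14.9). In the other 131 P4 cells, with a median of 2857 UMIs, Krt19 had 0 UMIs, which allows a share of up to 2.29% of cells with a UMI, while Krt18 had UMIs in 20 of these 131 cells (15.3%). Within the mesenchyme-like cells Krt19 had UMIs in 10 of 41 cells of cluster 13 and 6 of 35 of cluster 11, but 1 of 79 of cluster 8, at 87.2, 32.4 and 3.49 CPM. Krt18 stood at 49.1, 41.6 and 48.9 CPM in the same clusters. In the P4 epithelial-like cells there were 26.8 Krt18 UMIs per Krt19 UMI, and in cluster 13 there were 9 Krt18 and 16 Krt19 UMIs.

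The 17 mesenchyme-like P4 cells with Krt19 had mesenchyme genes throughout and almost no UMIs of the other simple keratins. The collagen and matrix genes Col1a1 and Dcn had UMIs in all 17, while Krt18, Krt8, Krt7 and Epcam had 1 UMI each over the 17 cells. The epithelial claudin Cldn3 had 3 UMIs in 2 of the 17 cells, and 3 UMIs in 3 of the 160 mesenchyme-like P4 cells without Krt19. Clusters 11 and 13 were both led by Mfap5, Clec3b, Dcn, Ly6a and Dpt, and cluster 13 also by Pi16, all genes of fibroblasts and connective tissue sheaths. The mesothelial genes Wt1, Msln and Upk3b, chosen after the values were seen, had 0 UMIs in the 17 cells. The counts per cell were low, at most 5 UMIs, and 2 cells of cluster 13 and 1 of cluster 11 had 2 or more. In E16, Krt19 had 3 UMIs in 2 of 96 mesenchyme-like cells (2.08%), and the E16 library held 3 cells of cluster 11 and 2 of cluster 13.

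**Figure D4:**
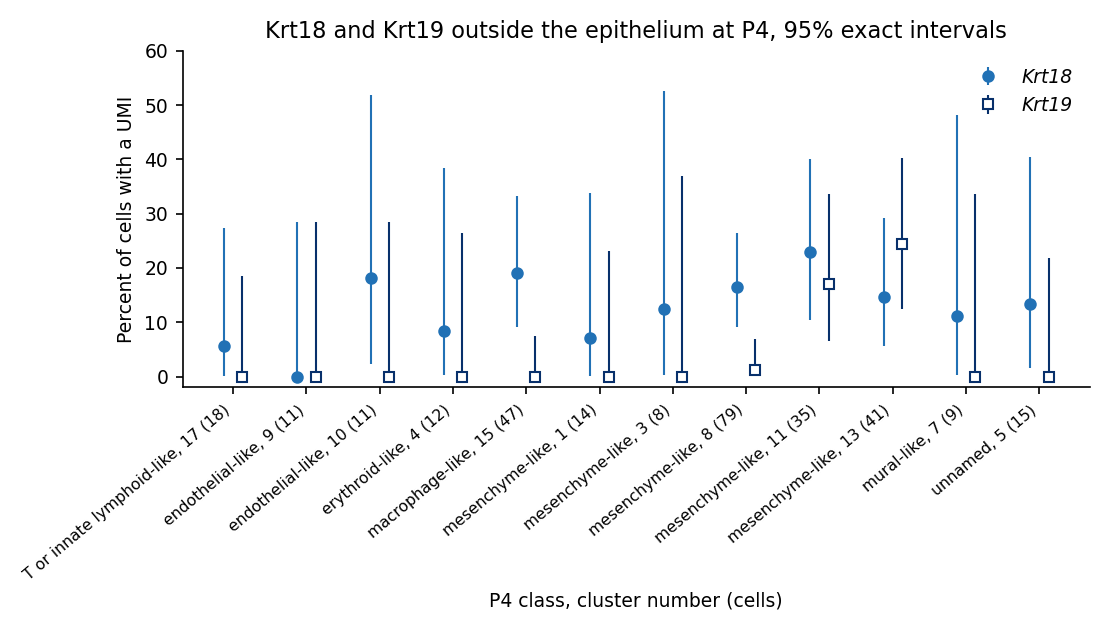
Percent of P4 cells with a UMI of Krt18 (filled circles) or Krt19 (open squares) in each cluster outside the epithelium with at least 8 cells, with exact Clopper-Pearson 95% intervals and the number of cells in brackets. Krt18 was found in all of these clusters but the endothelial-like cluster 9, and Krt19 only in the mesenchyme-like clusters 8, 11 and 13.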

How the data were processed

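The deposited files hold whole UMI counts per gene and cell barcode for 2 libraries, with no normalization, as the authors deposited them. They were made with Cell Ranger on the mm10 build, per the submitters' processing notes. For its version, settings, annotation, barcode choice and use of strand nothing is given in the sources used here. The title refers to 10x Genomics and the labels' protocol to Drop-seq. No cell was filtered on mitochondrial reads, since the 13 such features were at 0 throughout.

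Barcodes with at least 200 detected genes were kept (1711606 and 1975814 UMIs). Both libraries were clustered together with scanpy 1.11.5 (10000 counts per cell, log-transformed, 2000 variable genes, 20 components, 15 neighbours, Leiden resolution 1) without the 51 keratin features. Of 18 clusters, 4 were epithelial-like by the highest mean standardized expression over 13 marker lists with at least 3 markers detected in 20% of cells. Epithelial-like cells were clustered again within each library on 10 components. A sub-cluster was named where 3 or more markers of its list were detected and at least 1 was among its 10 leading genes, a rule tightened after the values were seen. Scrublet called 1 doublet, an E16 epithelial-like cell, and it was kept.

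UMIs were summed over a class and divided by its total (CPM), with exact Poisson intervals, exact conditional intervals for ratios and Clopper-Pearson intervals for shares. No test across samples was possible with 1 library per stage. Thinned shares are exact hypergeometric expectations at 979 UMIs per cell. The ratio step was checked on simulated data. The members and gene lists were chosen with earlier results of these data known. From each list, up to 3 genes with the largest log2 ratio whose interval left out 1 were named, together with the 5 closest genes by correlation and the 5 leading genes of each sub-cluster. A few of these genes are not reported here. Ratios within clusters and the lists' values with abundant genes out of the totals were added after the values were seen. Alternatives covered the gene minimum, clustering, class rule, scaling, cell weighting, background and the top cell.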

Additional observations from a re-analysis of the deposited data

Results flagged for a closer look

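Keratin UMIs were also found in barcodes that no comparison used, those with fewer than 200 detected genes. The 178 such barcodes of E16 held 7 UMIs of the 8 genes, and the 281 of P4 held 28, above the limit of 3 counts that a count of 0 allows. In P4, 25 of the 28 were Krt18 UMIs, or 731 per 1000000 UMIs that were not haemoglobin, against 46.8 CPM in the kept cells outside the epithelium. Most UMIs of these barcodes were haemoglobin, and the source of the keratin UMIs was not tested.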

How the results depend on the processing

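Each ratio was recomputed under 12 alternatives and each share of cells with both keratin sets under 10, and 1 of them, leaving out the shallow epithelial-like cluster 2 (medians of 1743 and 1169 UMIs), was added after seeing the data. No sign changed for the summed sets or for any keratin but Krt19. The log2 ratio of P4 over E16 of the simple keratins, 1.79, ranged from 1.63 to 2.24. It became 2.24 without cells above 10% Dcpp and Smgc UMIs, 1.63 with equal weight for each cell, and 2.18 with genes above 1% of UMIs left out of the totals. That of the basal keratins, -1.29, ranged from -1.43 to -0.80, and became -0.80 without the Dcpp and Smgc cells and -0.90 with the abundant genes out of the totals. Under these 2 settings Krt14 stood at -0.59 and -0.68, short of 2-fold. The share of cells with both sets was 43.8% in E16 and 20.4% in P4 with at least 2 UMIs of each, and 22.0% and 14.02% after thinning. Krt19 ranged from -0.21 without its top cells to 0.80 with equal cell weights. No replicate could be left out, since each stage is 1 library. No paired analysis was possible because each stage has 1 library and no replicates.

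Depth limits the sparse genes, Krt5, Krt15 in P4 and Krt7 in E16, each with at most 31 UMIs in the library named, or in both for Krt5. Classes rest on clusters: a rule per cell of at least 3 epithelial markers gave 75 E16 and 79 P4 cells, of which 11 and 7 had exactly 3.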
